A study of Drosophila mojavensis with 172 samples.

Results

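Newly eclosed females of Drosophila mojavensis were compared between 2 wild-type populations, Punta Prieta (PP) and Las Bocas (LB). The 0-day females were taken by their sample titles and made up 18 of the 172 arrays in the series. They comprised 5 PP arrays on agria, 5 PP arrays on organ pipe, 4 LB arrays on agria and 4 LB arrays on organ pipe. PP flies came from Baja California and LB flies from Sonora, and no group carried a mutation or a transgene. The flies had been raised on laboratory medium made from 1 of these 2 cacti. All bottle cultures shared moderate larval densities and a light-dark cycle with warm and cool phases. Each array gave a Cy3 signal from total RNA for 14528 transcripts. The other stages of the series were 6-hour eggs (E6), larval instars (L1, L2, L3) and early and late pupae (EP, LP). There were also females of 3 to 24 days (3D to 24D). Their arrays are used below for comparison and to choose sets of transcripts. They also enter the test between ages and an alternative estimate of the spread. The labels do not say how many females were in a sample or whether replicates came from separate cultures. P-values therefore rest on the scatter among these arrays alone, and that scatter may be technical.

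As background, D. mojavensis breeds in rotting cactus of the Sonoran Desert. Populations of Baja California mainly use agria, and those of mainland Sonora mainly use organ pipe, so the populations differ in their natural host as well as in origin. A female is not mature when she leaves the pupal case. Egg production starts only after days of feeding. In D. melanogaster, larval fat body cells persist in the newly eclosed adult and are lost in early adult life, so a whole newly eclosed fly is a mixture of larval remnants and adult tissue. In whole flies, fewer cells of a type and less RNA per cell cannot be told apart. The array's transcript IDs were not paired with gene names (0 IDs matched the annotation table that was used), so transcripts are given by ID and no function is assigned to them.

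The population labels of the 18 arrays held on transcripts chosen from other stages. A set of 14 transcripts was taken, after the data had been seen, as those that differed between the populations by at least 0.7 on the log2 scale in the same direction in at least 9 of the 12 other stages. Of these, 8 were higher in PP and 6 lower in PP. Each array was placed by its mean signed distance from the midpoint of the 2 populations on these transcripts. The midpoint was that of the labelled arrays of the stage being placed. The mean positions of PP and LB are therefore equal and opposite by construction, and only the transcripts and their directions come from other stages. The 10 PP arrays of 0-day females lay between 0.38 and 0.86 (median 0.71), and the 8 LB arrays lay between -0.88 and -0.41 (median -0.66). The 2 ranges did not overlap, so 18 of 18 arrays lay on the side of their label. With sets defined in the same way for every other stage, 146 of 152 arrays lay on their own side. The 6 exceptions were 4 late pupal arrays, the library labelled PP 6-day agria replicate 5 (-0.73) and the library labelled LB 14-day agria replicate 3 (0.68).

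**Figure D1:**
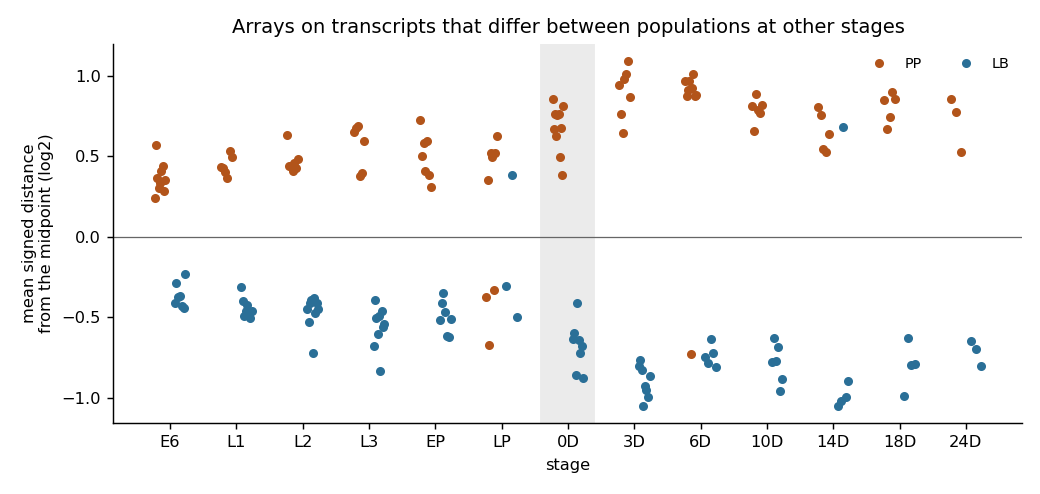
Mean signed distance of each array from the midpoint between PP and LB (log2, y axis) at 13 stages (x axis), on transcripts that differ between the populations at other stages. The midpoint is that of the labelled arrays of the same stage. Each point is 1 array, PP left of LB, and the 0-day stage is shaded. All 18 arrays of 0-day females lie on the side of their label, while late pupae, 6-day and 14-day females each hold arrays on the other side.

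The stage labels held less evenly. LB agria replicate 4 stood apart from the rest of the 0-day arrays. Its mean correlation with its 3 group mates was 0.835, against 0.914 to 0.978 for the other 17 arrays with theirs. It correlated with the mean of second-instar larvae at 0.879 and with the mean of the other 0-day arrays at 0.830. In the other 17 arrays the correlation with the remaining 0-day arrays was at least 0.954, and 3-day females were the nearest other stage. In replicate 4, 352 transcripts lay at least 2 log2 units above its group mates and 47 at least 2 below. The next array, PP agria replicate 2, had 177 and 6, and LB agria replicate 3 had 66 and 8.

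Lists of transcripts, 4 in all and defined on arrays of other stages, show the direction of these departures. The larval list holds 473 transcripts whose means in all 3 instars were at least 1 log2 unit above those of eggs, late pupae and 3-day females. LB agria replicate 4 averaged 11.72 on this list and its group mates averaged 10.18, while the mean of second-instar larvae was 12.59. Of the 473 transcripts, 144 lay at least 2 units above the mates and 1 lay as far below. FBtr0164726 had 13.52 in replicate 4, against 11.29, 10.93 and 9.64 in its mates and 13.03 in second-instar larvae. FBtr0175515 had 13.20, against 10.61, 10.71 and 9.63. At the other end, FBtr0172226 had 9.61 in replicate 4, against 12.54, 12.75 and 11.90 in its mates. FBtr0175018 had 9.69, against 12.26, 12.15 and 12.34, where larvae had means of 9.41 to 9.44. These were the 2 highest and the 2 lowest transcripts of replicate 4 relative to its mates, and the array's values for FBtr0164726, FBtr0175515 and FBtr0175018 lay nearer to larval means than to its mates. LB agria replicate 3 and PP agria replicate 2 had the highest correlations with late pupae among the other 17 arrays, 0.808 and 0.793.

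The population means on the larval list differed in the same direction by a smaller amount, which was not tested. On the larval list the 10 PP arrays averaged 10.01 ± 0.29 (SD) and ranged from 9.75 to 10.55. The 8 LB arrays averaged 10.50 ± 0.57 and ranged from 9.80 to 11.72, and the 7 without replicate 4 averaged 10.32 ± 0.31. The ranges overlapped with and without that array. On agria, PP averaged 10.05 and the LB group mates of replicate 4 averaged 10.18. On organ pipe, PP averaged 9.96 and LB 10.43. The young adult list (1476 transcripts at least 1 unit higher in 3-day females than in third-instar larvae and pupae) averaged 12.14 ± 0.12 in PP and 12.02 ± 0.35 in LB, or 12.13 ± 0.13 without replicate 4. The late pupal list (286 transcripts) averaged 10.44 ± 0.21 in PP and 10.33 ± 0.24 in LB, or 10.34 ± 0.26 without replicate 4. The list of mature females and eggs (1639 transcripts, 815 of them also on the young adult list) averaged 11.58 ± 0.10 in PP and 11.52 ± 0.24 in LB, or 11.60 ± 0.08 without replicate 4, which turned the direction.

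Each array was also placed on an axis that is 0 at the mean of late pupae and 1 at the mean of 3-day females, using the 6110 transcripts for which those means lie 1 log2 unit or more apart. PP females averaged 0.799 ± 0.082 (n = 10) and LB females 0.705 ± 0.154 (n = 8). The difference of 0.0934 did not pass a two-sided exact permutation test within diet (p = 0.102), and it was 0.0462 without replicate 4 (exact permutation p = 0.251). PP females on agria scored 0.638 to 0.927 and LB females on agria 0.375 to 0.765. PP females on organ pipe scored 0.725 to 0.842 and LB females on organ pipe 0.697 to 0.855. With early in place of late pupae as the lower end and replicate 4 included, the difference was 0.128 and passed (exact permutation p = 0.0134). This setting was not run without replicate 4. Of 21 alternatives to the main setting, the other 20 did not pass.

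**Figure D2:**
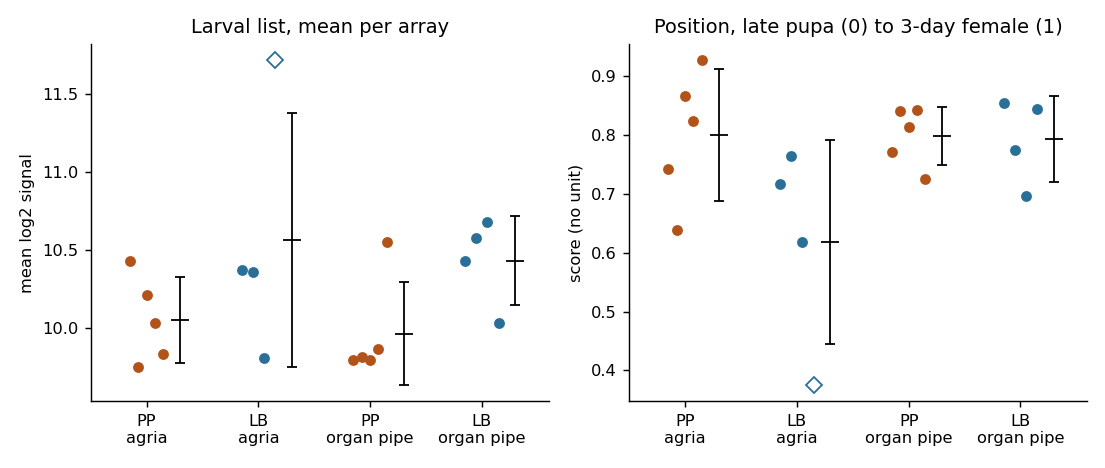
Left, mean log2 signal of the larval list in each 0-day array. Right, position of each array between late pupae (0) and 3-day females (1). Points are arrays, the open diamond is LB agria replicate 4, and bars are group means ± SD. Replicate 4 is the highest array on the larval list (11.72) and the lowest on the axis (0.375).

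The first question was which transcripts differ between the populations at eclosion whatever the diet. With diet as a block, 154 of 14528 transcripts differed (1.06%, limma with Benjamini-Hochberg adjusted p under 0.05), 88 higher (0.606%) and 66 lower (0.454%) in PP. At an unadjusted p under 0.05 there were 3831. Of the 154 called transcripts, 15 were higher and 29 lower in PP by at least 1 log2 unit. The called rises were smaller than the called falls, with a median size of 0.58 among the 88 and 0.94 among the 66. Over all transcripts the median absolute difference was 0.18. The called transcripts were of ordinary signal, as the median level over the 18 arrays was 11.23 for those higher in PP, 11.61 for those lower in PP and 11.25 for all transcripts. In 41 of the 154 the PP and LB arrays did not overlap at all, 23 with every PP array above and 18 with every PP array below. Over all 14528 transcripts 47 (0.324%) showed no overlap, 29 (0.2%) with PP above and 18 (0.124%) with PP below. Population took 17.3% of the variance among the 18 arrays, diet 4.94%, the interaction of population and diet 6.74%, and 71% lay within the 4 groups. Without LB agria replicate 4 these shares were 15.3%, 5.24%, 8.9% and 70.7%.

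FBtr0167365 had the greatest fall. Its log2 signal was 9.89, 9.45, 9.92, 9.33 and 9.99 in PP females on agria and 9.77, 9.40, 9.46, 10.03 and 9.82 in PP females on organ pipe. In LB females it was 12.96, 12.27, 11.95 and 12.40 on agria and 13.06, 12.45, 12.37 and 12.59 on organ pipe. The populations were separated by a wide gap on both diets. The difference was -2.80 (SE 0.15, limma adjusted p = 1.99e-09), and -2.81 without replicate 4.

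FBtr0164865 fell next. It had 9.99, 9.62, 10.56, 9.82 and 9.02 in PP females on agria and 9.21, 9.09, 9.36, 9.10 and 11.02 in PP females on organ pipe. LB females had 11.27, 12.11, 11.17 and 14.07 on agria and 11.54, 12.28, 12.26 and 11.54 on organ pipe. The populations did not overlap, but PP organ pipe replicate 5 and LB agria replicate 4 stood above their groups, and these 2 arrays were also the highest of their groups on the larval list. The difference was -2.35 (SE 0.35, limma adjusted p = 0.00187), and -2.06 without replicate 4 (limma adjusted p = 0.000654). It was -1.54 with the larval list as a covariate, a choice made after seeing the data, and -1.53 with the SD of each array as one, both past the threshold (limma adjusted p = 0.000136 and 0.00297).

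FBtr0161951 rose in PP. PP females had 11.81, 11.02, 11.27, 11.30 and 11.47 on agria and 11.81, 11.08, 11.46, 11.31 and 11.86 on organ pipe. LB females had 10.00, 9.62, 9.73 and 9.93 on agria and 9.76, 9.51, 9.46 and 9.70 on organ pipe. Every PP array lay above every LB array, replicate 4 included. The difference was 1.73 (SE 0.12, limma adjusted p = 1.37e-07).

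FBtr0165463 rose by the same size with a wider spread. PP females had 12.69, 12.20, 12.07, 11.89 and 11.95 on agria and 12.28, 11.54, 12.01, 11.63 and 12.46 on organ pipe. LB females had 9.85, 10.48, 9.18 and 12.35 on agria and 10.37, 10.41, 10.46 and 9.66 on organ pipe. LB agria replicate 4 lay within the PP range, and the remaining 7 LB arrays lay below every PP array. The difference was 1.73 (SE 0.30, limma adjusted p = 0.00632) with replicate 4 and 2.02 (SE 0.20, limma adjusted p = 1.73e-05) without it.

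**Figure D3:**
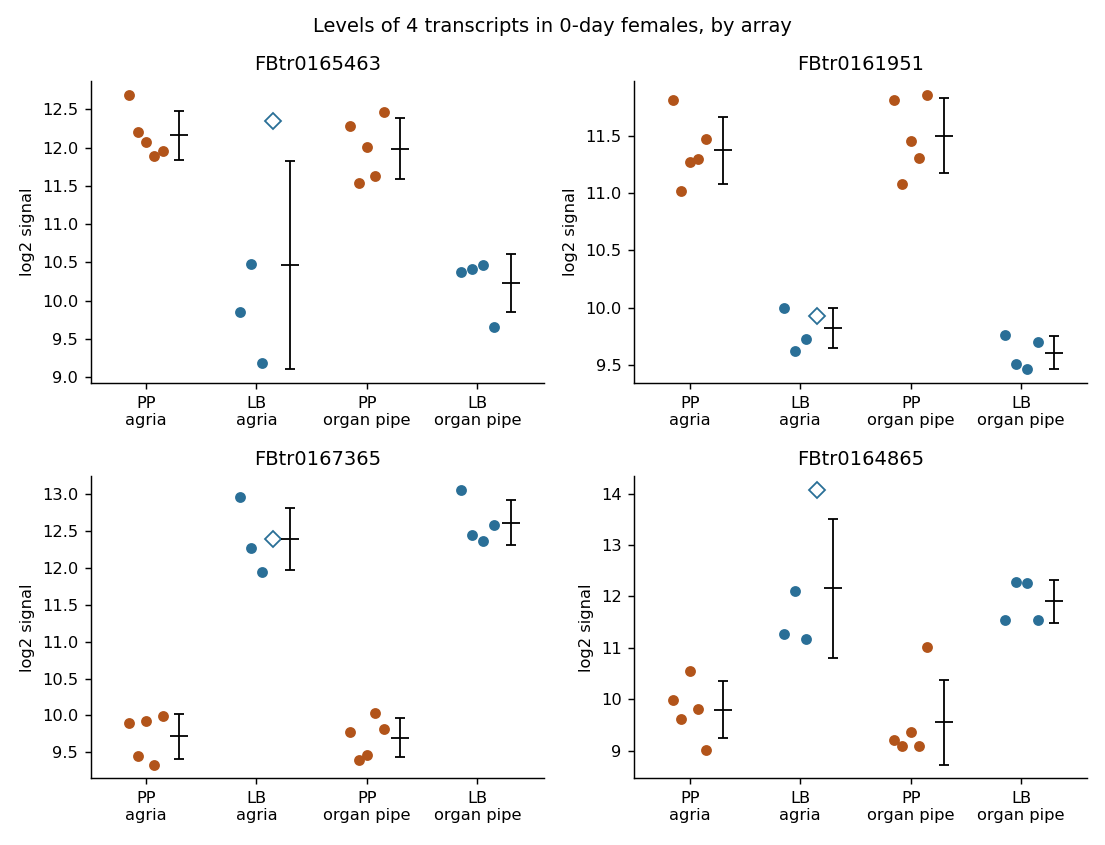
Log2 signal of FBtr0165463, FBtr0161951, FBtr0167365 and FBtr0164865 in each 0-day array, PP left of LB on each diet. Points are arrays, the open diamond is LB agria replicate 4, and bars are group means ± SD. The populations separate in every panel except for that array in FBtr0165463.

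Without LB agria replicate 4, 165 transcripts were called (1.14%), 85 higher (0.585%) and 80 lower (0.551%) in PP, and 125 were called both ways. All 154 kept their sign, but they were called on these same arrays, so this is a description and no separate check. The same 2 transcripts then led the rises, and FBtr0175016 (-2.15, SE 0.22, limma adjusted p = 2.05e-05) came second among the falls after FBtr0167365. The count moved by over 1.5 times without 9 other arrays, each left out alone. Without LB agria replicates 1 and 3, it was 96 and 373. Without LB organ pipe replicates 3 and 4, it was 72 and 388. Without PP agria replicates 3, 4 and 5, it was 101, 88 and 93. It was 83 without PP organ pipe replicate 2 and also 83 without PP organ pipe replicate 4. The balance turned to 134 higher and 239 lower in PP without LB agria replicate 3, and to 92 and 97 without PP organ pipe replicate 5. Over all these fits the differences of FBtr0167365, FBtr0161951 and FBtr0164865 stayed past the threshold.

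The larval list moved with this comparison. Of its 473 transcripts, 2 were called higher and 11 lower in PP (2.75%, against 1.06% of all transcripts), its median difference was -0.54 and 426 were below 0. Over all transcripts the median difference was 0.03. Without replicate 4 the list had 4 higher and 11 lower, with a median of -0.33. With each array's mean on the larval list as a covariate, 96 transcripts were called, 48 in each direction, of which 65 were among the 154. All 154 again kept their sign, on the arrays on which they had been called. The young adult list had 11 higher and 2 lower in PP with a median of 0.13, and a median of 0.01 without replicate 4. The late pupal list had 2 higher and 0 lower with a median of 0.12, and a median of 0.11 without replicate 4. The list of mature females and eggs had 6 higher and 7 lower with a median of 0.08, which turned to -0.02 without replicate 4. Of the 154 called transcripts, 37 (24%) were on any of the 4 lists, against 21.1% of all transcripts.

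The next comparison asks whether the population difference holds on each cactus. With 1 mean for each group, 31 transcripts differed on agria (0.213%), 22 higher and 9 lower in PP, and 17 on organ pipe (0.117%), 7 higher and 10 lower. Without LB agria replicate 4 there were 28 on agria (0.193%) and 46 on organ pipe (0.317%). With all arrays, 11 were called on both diets, all 11 in the same direction. The 154 transcripts of the blocked comparison were chosen on the same 18 arrays averaged over the diets, so their signs on the 2 diets are a description and no separate check. All 154 had the same sign on both, as did 63.2% of all transcripts. With at least 0.5 log2 units on each diet there were 93 (60.4%), against 5.69% of all transcripts. The difference between the diets was tested directly, and limma passed 0 transcripts (0%) for the interaction. At an unadjusted p under 0.05 there were 1420 with replicate 4 and 1505 without it. The median standard error of the interaction was 0.26 log2 units, against 0.13 for the blocked population difference. The greatest interaction values, 2.35 and -2.61 with all arrays, did not pass either. The 0 calls therefore do not show that the population difference was alike on the 2 diets.

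FBtr0167365 led the falls on both diets, with -2.67 on agria (SE 0.21, limma adjusted p = 3.78e-06) and -2.92 on organ pipe (limma adjusted p = 9.33e-07). On organ pipe FBtr0175016 came second, with 9.88, 10.96, 10.18, 11.17 and 10.70 in PP and 12.68, 13.22, 12.87 and 12.48 in LB. Its difference was -2.23 (SE 0.30, limma adjusted p = 0.00152), and on agria it was -1.97 (limma adjusted p = 0.00629). FBtr0161951 (1.90) and FBtr0167831 (1.61, SE 0.22, limma adjusted p = 0.00213) led the rises on organ pipe, and on agria they differed by 1.55 and 1.48. These 4 transcripts thus passed on both diets.

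The other leading transcripts on agria, FBtr0166472, FBtr0166447 and FBtr0162855, passed there but not on organ pipe. Their interaction of population and diet did not pass (limma adjusted p = 0.457, 0.459 and 0.468), so no dependence on diet was shown. All passed the blocked comparison with all arrays (limma adjusted p = 0.0322, 0.0192 and 0.0299). FBtr0166472 had 12.88, 13.42, 12.52, 12.79 and 12.57 in PP females on agria and 10.55, 10.67, 10.65 and 10.52 in LB females on agria, a difference of 2.24 (SE 0.42, limma adjusted p = 0.0307). On organ pipe it had 11.44, 13.29, 11.24, 13.21 and 12.90 in PP females and 12.42, 12.22, 10.80 and 11.04 in LB females. Each organ pipe group thus held high and low arrays, and the populations overlapped there (0.80, limma adjusted p = 0.394). FBtr0162855 ran the opposite way. It had 12.37, 11.89, 11.96, 12.15 and 12.21 in PP females on agria and 14.25, 14.26, 14.18 and 14.14 in LB females on agria, a difference of -2.09 (SE 0.40, limma adjusted p = 0.0347). On organ pipe it had 13.49, 11.82, 13.50, 11.86 and 12.15 in PP females and 12.39, 12.71, 14.29 and 14.10 in LB females. The arrays low for FBtr0166472 on organ pipe, PP replicates 1 and 3 and LB replicates 3 and 4, were the ones high for FBtr0162855. FBtr0166447 was split in a like way, with 10.12 and 11.11 in PP organ pipe replicates 1 and 3 against 11.73 to 12.13 in the other PP organ pipe arrays, and differed by 2.08 on agria (limma adjusted p = 0.0219). Without LB agria replicate 4 the agria differences of FBtr0166472, FBtr0166447 and FBtr0162855 were 2.22, 1.94 and -2.12 and missed the threshold (limma adjusted p = 0.0748, 0.0708 and 0.0748). The labels give no batch or collection time, so a batch or hour of collection shared by these arrays was not tested.

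**Figure D4:**
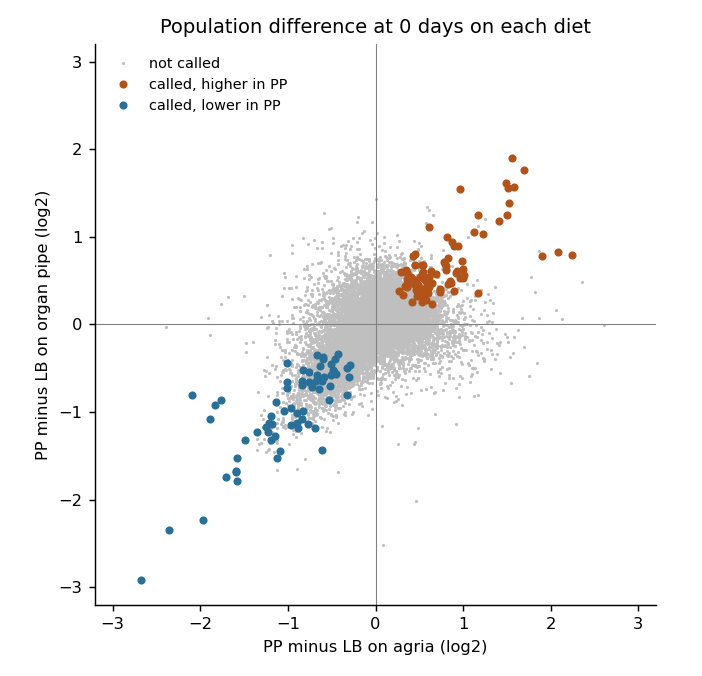
Population difference (PP minus LB, log2) on agria (x axis) against organ pipe (y axis) for 14528 transcripts. Each point is 1 transcript, and the 154 called in the blocked comparison are coloured by direction. All called transcripts lie in the lower left or upper right part of the plot, with FBtr0167365 at the lower left end.

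Counts within a diet also hung on single arrays of either diet. An array of the other diet enters these fits only through the spread shared by the groups. Leaving it out changes the count but not the differences themselves. On agria the count was 16 without LB agria replicate 1, 78 without LB organ pipe replicate 3 and 58 without PP organ pipe replicate 1. It was 14 without PP agria replicate 2, 3 or 4 and 12 without PP agria replicate 5. On organ pipe it was 46 without LB agria replicate 4, 70 without LB organ pipe replicate 4 and 79 without PP organ pipe replicate 5. With all arrays the larval list had a median difference of -0.53 on agria and -0.51 on organ pipe, while the other lists differed more between the diets. Without LB agria replicate 4 the larval list had -0.13 on agria, so its likeness on the 2 diets rested on that array. The late pupal list had a median difference of -0.09 on agria (-0.15 without LB agria replicate 4) and 0.31 on organ pipe. The young adult list had 0.34 on agria (0.11 without LB agria replicate 4) and -0.08 on organ pipe. The list of mature females and eggs had 0.19 on agria (0.03 without LB agria replicate 4) and -0.04 on organ pipe. With all arrays, replicate 4 included, the interaction (organ pipe minus agria) had a median of 0.41 over the late pupal list and of -0.39 over the young adult list. The median was -0.23 over the list of mature females and eggs and 0.02 over the larval list, against -0.05 over all transcripts. Of these members 0 passed its test.

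Whether the differences of newly eclosed females are found at other ages was read from arrays of other stages, which share no sample with them. In 3-day females, 73 transcripts differed between the populations (0.502%), and 35 of these were among the 154 called at 0 days in the same direction, which is 22.7% of the 0-day list and 47.9% of the 3-day list. Of the 154, 1 was called in the opposite direction at 3 days. In 10-day females 4441 transcripts differed (30.6%), 55 of the 154 in the same direction and 19 in the opposite one. In 6-day females 7 differed (0.0482%), 6 of them among the 154 and in the same direction. Without the 6-day library labelled PP agria replicate 5, which lay on the LB side, 30 differed (0.206%) and 22 were among the 154, again in the same direction.

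In all, 63 of the 154 were called again in the same direction at 3, 6 or 10 days, 33 of them higher and 30 lower in PP. At 10 days alone, where 30.6% of all transcripts were called, 55 of the 154 recurred. Without LB agria replicate 4 at 0 days, the count over 3, 6 and 10 days was 71 of 165, 34 higher and 37 lower in PP. With all 0-day arrays it was 35 when 3 and 6 days alone were used. Without LB organ pipe replicate 4 at 0 days it was 95. The sign was the same at 3, 6 and 10 days for 79 of the 154 (51.3%), against 24% of all transcripts. Median differences of the 88 and of the 66 were 0.23 and -0.22 at 3 days, 0.20 and -0.47 at 6 days and 0.03 and -0.42 at 10 days. From 14 to 24 days the sign was the same for 124 or 125 of the 154, and 16 were called in the same direction and 0 in the opposite one at 18 days, where 73 were called in all (0.502%). Over the whole array limma called 1 transcript at 14 days (0.00688%) and 0 at 24 days, where unadjusted p fell under 0.05 for 771 and 274.

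Calls shared with stages before eclosion varied by stage. In third-instar larvae 28 of the 154 were called in the same direction and 0 in the opposite one, where 180 transcripts were called in all (1.24%). In eggs 35 were called in the same direction and 3 in the opposite one, where 8.73% of all transcripts were called. In first-instar larvae, with 38.8% of all transcripts called, 34 ran in the same and 13 in the opposite direction. Of the 66 lower in PP at 0 days, 10 were called in the same and 11 in the opposite direction there. The median difference of these 66 in first-instar larvae was 0.13. In second-instar larvae 2 of 10 called transcripts (0.0688%) were among the 154, and in early pupae 7 of 27 (0.186%), all in the same direction. Late pupae had 0 calls by limma and 384 unadjusted p under 0.05, and 59 of the 154 had the same sign. This stage held 4 of 11 arrays on the side of the other population, and 3 LB arrays in all. Of the 154, 41 (26.6%) were called at no other stage, against 36.6% of all transcripts, and 12 (7.79%) had the same sign in all 12 other stages, against 1.03% of all transcripts. Of the 14 transcripts that set the populations apart at other stages, 9 were called at 0 days in that direction and 0 in the opposite one.

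Across 0, 3, 6 and 10 days, 6 transcripts were called in the same direction each time, 1 higher and 5 lower in PP. FBtr0167831, the one higher in PP, had 10.86 ± 0.27 (SD, n = 10) in PP females and 9.31 ± 0.42 (n = 8) in LB females at 0 days. At 3 days it had 11.56 ± 0.32 in PP and 8.96 ± 0.39 in LB. The difference was 1.55 at eclosion and 2.59, 2.03 and 2.01 in females of 3, 6 and 10 days. FBtr0167365 was lower in PP by 2.80 at 0 days, and its differences were -3.03, -3.31 and -3.13 at 3, 6 and 10 days (limma adjusted p = 4.27e-07, 0.0337 and 0.000146). Earlier in life it passed in eggs (-0.97, limma adjusted p = 0.00164) and in first-instar larvae (-1.73, limma adjusted p = 0.00123). Its difference was -0.30 in third-instar larvae and -0.29 in late pupae, where it did not pass, and the means of third-instar larvae were 14.65 in PP and 14.84 in LB. FBtr0162021 had 12.48 ± 0.29 (n = 10) in PP females and 13.78 ± 0.25 (n = 8) in LB females at 0 days, and differences of -1.29, -1.17, -1.46 and -1.87 at 0, 3, 6 and 10 days. FBtr0161951 was higher in PP by 1.73 at 0 days and by 1.27, 0.92 and 1.05 at 3, 6 and 10 days, of which the 6-day value did not pass (limma adjusted p = 0.227). FBtr0164933, another of the 14, had 9.19 ± 0.22 in PP females and 7.62 ± 0.14 in LB females at 0 days, a difference of 1.57 (SE 0.09, limma adjusted p = 1.17e-08). Its LB arrays, at 7.45 to 7.83, lay near the lowest value of the whole table. With no measure of background, the size of the difference in RNA is uncertain. Whether the probes bind RNA of both populations equally was not tested, for this or any other transcript. FBtr0169031, also of the 14, averaged 12.71 ± 1.00 in PP females and 14.09 ± 0.28 in LB females at 0 days. All PP arrays lay below all LB arrays, but PP agria replicates 1 and 5, at 10.11 and 11.88, lay far below the rest of PP. Its difference was -1.38 (SE 0.32, limma adjusted p = 0.0436), and -1.41 without LB agria replicate 4, where it missed the threshold (limma adjusted p = 0.0563).

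**Figure D5:**
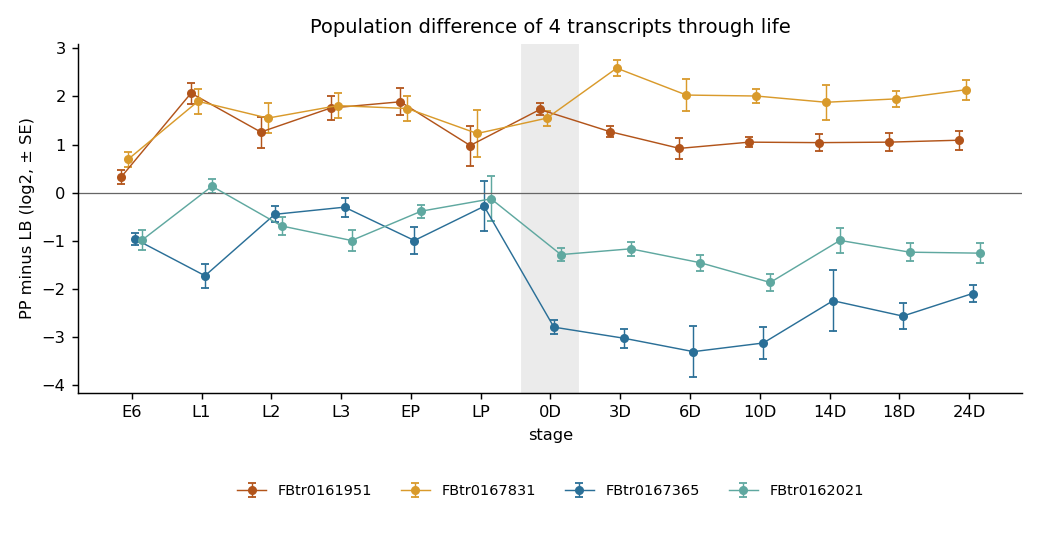
Population difference (PP minus LB, log2, ± SE, y axis) of FBtr0161951, FBtr0167831, FBtr0167365 and FBtr0162021 at 13 stages (x axis), each from a fit on the arrays of that stage alone, with 0 days shaded. FBtr0167365 differs by -0.30 in third-instar larvae and by -2.80 to -3.31 from 0 to 10 days.

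The difference between ages was tested directly as well. The population difference at 0 days was set against the mean of those at 3, 6 and 10 days, and 2811 transcripts passed (19.3%, limma), 1583 with a higher and 1228 with a lower value at 0 days. Without LB agria replicate 4 it was 2133 (14.7%), 1043 and 1090, so the balance turned. The count was 1753 without LB organ pipe replicate 3. The fit on 10-day arrays alone called 4441 transcripts, more than the fits at 3 and 6 days. Against 3 days alone 19 transcripts passed, 7 higher and 12 lower at 0 days, and against 3 and 6 days 158 passed.

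FBtr0165721 had the greatest rise in this test. At 0 days it had 13.49 ± 0.69 (SD, n = 10) in PP and 12.16 ± 0.65 (n = 8) in LB. At 3 days it had 13.22 ± 0.83 (n = 7) in PP and 13.75 ± 0.80 (n = 8) in LB. The population difference was 1.34 at 0 days, and it exceeded the mean of the later ages by 1.95 (SE 0.34, limma adjusted p = 0.000905). The 0-day LB arrays on agria lay at 11.57 to 11.92, while LB organ pipe replicates 1 and 2, the arrays that were also high for FBtr0166472, had 12.87 and 13.32. FBtr0165732 had an excess of 1.93 (SE 0.37, limma adjusted p = 0.00162). FBtr0175110 had 9.80 ± 0.49 in PP and 10.63 ± 0.85 in LB at 0 days, against 14.07 ± 0.26 in PP and 10.69 ± 1.45 in LB at 10 days (n = 6 each). Its population difference was 0.93 at 3 days, -0.47 at 6 days and 3.37 at 10 days, of which the 10-day value passed (limma adjusted p = 0.000428). The 6-day value thus had the sign of the 0-day value (-0.83). LB agria replicate 4 had 12.32 at 0 days, above every other 0-day array of either population. The population difference of FBtr0175110 at 0 days lay below the mean of the later ages by 2.02 log2 units (difference -2.02, SE 0.74, limma adjusted p = 0.047), and without LB agria replicate 4 it missed the threshold (-1.75, limma adjusted p = 0.103). FBtr0168259 had a difference of -1.94 (SE 0.56, limma adjusted p = 0.014) and of -1.68 (limma adjusted p = 0.0362) without that array. Its population differences at 3, 6 and 10 days were 1.35, 1.48 and 0.60, none of which passed. Neither FBtr0175110 nor FBtr0168259 differed between the populations at 0 days by the blocked test (limma adjusted p = 0.132 and 0.15). FBtr0165732 missed that threshold too (1.35, limma adjusted p = 0.0633). FBtr0165721 passed it with all arrays (limma adjusted p = 0.0379) but not without LB agria replicate 4 (limma adjusted p = 0.0568).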

How the data were processed

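The authors deposited 1 table of log2 values, 1 per transcript and array, from 1-colour NimbleGen arrays, and the submitters' processing notes name RMA. Which version was used, and over which arrays, is not given in these sources. Values ran from 7.25 to 15.93, and the number of arrays limits the precision. Groups came from the sample titles. The members, lists and comparisons were chosen with earlier results of these data known.

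Differences (PP minus LB) used lmFit and eBayes of limma 3.58.1, under R 4.3.3, on the deposited log2 values of the 18 arrays, with diet as an additive term (15 residual degrees of freedom). The single diets and the interaction used 1 mean per group. Other stages were fitted alone in the same form, and the age test used arrays of 0, 3, 6 and 10 days. P-values were adjusted by Benjamini-Hochberg over 14528 transcripts, with calls under 0.05. Transcripts are named by rule: per comparison the 2 called ones with the greatest rise and the 2 with the greatest fall. For the blocked comparison the sign also had to match on both diets. For the repeat at other ages, transcripts had to be called at 0, 3, 6 and 10 days and were ranked by their mean difference at 3, 6 and 10 days. The 14 transcripts of the label check, and those named from them, were chosen after values were seen. The steps were tested on simulated data. No slide or scan batch was given, so none was fitted. The alternatives were other scalings, filters, array weights, covariates and sources of the spread, a replicate block and leaving out arrays.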

Additional observations from a re-analysis of the deposited data

Results flagged for a closer look

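An array was picked out where its gap to the nearest array of its group of 4 or 5 was a large share of the group's range (Dixon's test), which chance alone gives in about 1 of 20 groups. Of 92 such tests, 11 were picked out. LB agria replicate 4 was apart in its mean correlation with group mates (0.835, nearest 0.914), its young adult list (11.21, nearest 11.99) and its list of mature females and eggs (10.95, nearest 11.53). PP organ pipe replicate 5 was apart in its larval list (10.55, nearest 9.86), its SD over transcripts (1.63, nearest 1.70), its correlation with mates (0.954, nearest 0.972), FBtr0164865 (11.02, nearest 9.36) and FBtr0175110 (10.46, nearest 9.67). PP agria replicate 2 was apart in its correlation with mates (0.942, nearest 0.965). LB organ pipe replicate 4 was apart in FBtr0165463 (9.66, nearest 10.37) and FBtr0167831 (8.71, nearest 9.29), low in both.

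Effects that differed between ages by their own test were those of the 2811 transcripts whose population difference at 0 days was unlike the mean of 3, 6 and 10 days, among them FBtr0165721 (1.95), FBtr0165732 (1.93), FBtr0175110 (-2.02) and FBtr0168259 (-1.94).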

How the results depend on the processing

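The 8 leading and lifelong transcripts were refitted in up to 28 alternative settings, which gave 223 values. No sign reversed, and 207 values kept their side of the threshold. These settings reuse the 0-day arrays on which all 8 were called, so the kept signs are no separate check. Of the 16 that did not, 15 were of FBtr0169031 (adjusted p up to 0.145) and 1 was of FBtr0165463 (0.053, with the replicate block). The cause of the following changes was not tested unless fewer samples or transcripts give it. With the spread from all 172 arrays, the calls were 360 for the blocked comparison (151 higher and 209 lower in PP), 227 on agria, 40 on organ pipe, 34 for the interaction and 1206 for the age test. With array weights they were 1524 (604 higher and 920 lower), 150 on agria, 3144 on organ pipe and 2 for the interaction. With the larval list as a covariate, chosen after seeing the data, they were 96, then 47 on agria and 45 on organ pipe. The SD of each array as a covariate gave 105 (43 higher and 62 lower) and 46 on organ pipe, trend and robust moderation gave 50 on agria, and leaving out the dimmest 25% gave 100 on agria. An absolute difference of at least 1 left 44. The age test gave 19 against 3 days alone and 158 against 3 and 6 days, where the repeat gave 35. Early pupae as the lower end gave a position difference of 0.128 with LB agria replicate 4 included. Centring and quantile normalization kept the blocked count within 1.5 times, at 180 and 173.

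Leaving out single arrays gave 72 to 388 calls for the blocked comparison, 12 to 78 on agria, 13 to 79 on organ pipe, 0 to 1 for the interaction (1 without PP organ pipe replicate 5), 1753 to 3846 for the age test, 45 to 95 for the repeat and position differences of 0.0462 to 0.115. Equal replicate numbers did not pair the samples. Over 25 pairs with the same number, the median correlation of deviations from group means was -0.07, 8 exceeded 0.1, and 2 of 18 arrays matched best with their own number. The replicate block gave 51 calls, then 6 on agria, 12 on organ pipe, 0 for the interaction and 2795 for the age test.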

Other observations

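Late pupae are the stage just before eclosion, and 4 of their 11 arrays lay on the side of the other population on 23 transcripts that differ between the populations at other stages. They were the libraries labelled LB agria replicate 2 (0.38), PP agria replicate 1 (-0.38), PP agria replicate 3 (-0.67) and PP organ pipe replicate 2 (-0.33). The library labelled PP 6-day agria replicate 5 had 3 of 14 such transcripts on the PP side, against 11 to 14 in the other PP arrays of that age. The library labelled LB 14-day agria replicate 3 had 13 of 13 on the PP side.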
